A study of Mus musculus with 12 samples.

Results

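A set of 10 genes of the brush border and the villus tip was followed through 12 RNA-seq libraries of the mouse duodenum. The genes were taken by symbol from a list, and 10 of 10 were found among the 26121 genes that had counts in both deposited tables. The 4 structural members, Vil1, Myo1a, Ezr and Cdhr5, build the brush border. The 4 villus tip members are Ada, Nt5e, Klf4 and Krt20, and the remaining members are Alpi and Slc28a2. All mice were C57BL/6N and were put on their diets at 6 weeks of age for 18 weeks. Chow libraries came from mice on regular chow, and HFD libraries from mice on a high-fat diet with no injection. HFD Vehicle libraries came from mice on the high-fat diet that were given the vehicle once a day for 4 days, labelled as 30% DMSO in corn oil by intraperitoneal injection. HFD PCN libraries came from mice on the high-fat diet that were given pregnenolone 16α-carbonitrile (PCN) at 50 mg/kg intraperitoneally once a day for 4 days. PCN is a synthetic steroid that activates the rodent pregnane X receptor, a nuclear receptor that induces genes of xenobiotic metabolism. Each of the 4 groups held 3 libraries, named here by the numbers in their labels. The labels do not say that the 3 libraries of a group came from separate animals, so the p-values measure the spread between these libraries.

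The brush border is the carpet of microvilli on the lumen-facing side of enterocytes, the absorptive cells of the villus. A bundle of actin filaments forms the core of each microvillus, side arms of myosin and linker proteins tie the core to the membrane, and cadherins at the microvillus tips join neighbours into an ordered array. Enterocytes are born in crypts, move up the villus and are shed at its tip, and their gene expression changes on the way. Genes of purine breakdown are among those known to be high in cells near the tip.

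Total counts ranged from 4676718 in HFD Vehicle 55 to 20684369 in HFD PCN 5, with a median of 15404357. The 10 members together took between 0.361% and 1.17% of the counts of a library. Levels below are CPM (counts divided by the library's effective total and scaled to 1000000) after TMM scaling over all 12 libraries, and a log2 level of a group of genes is the mean of log2(CPM + 0.5). The extraction text of the labels speaks of liver pieces while the tissue label is duodenum. The libraries held enterocyte RNA, with sucrase-isomaltase (Sis) between 2695 and 7953 CPM, and the hepatocyte gene Alb lay between 0.107 and 1.16 CPM. A few libraries stood apart: HFD 4, HFD Vehicle 23 and HFD Vehicle 50. In HFD 4, 1 ribosomal RNA-like gene, CT010467.1, took 13% of the counts, against 0.0127% to 2.72% in the other chow and untreated high-fat libraries. In HFD Vehicle 23 the mitochondrial ribosomal RNAs took 33.6% of the counts, against 8.69% to 19.2% in the other 11 libraries. For Hsp90aa1, a heat shock gene, HFD Vehicle 23 gave 1832 CPM and HFD Vehicle 50 gave 1487 CPM, with 62.4 to 424 CPM elsewhere. Smooth muscle markers summed to 1424, 1124 and 1153 CPM in these 3 libraries (HFD 4, HFD Vehicle 23 and HFD Vehicle 50), against 508 to 752 CPM in the other 9. These libraries are named again beside each result that rests on them.

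On build GRCm38, the structural members lie at chr1:74409376-74435559 (Vil1), chr10:127705170-127720940 (Myo1a), chr17:6738041-6782784 (Ezr) and chr7:141269083-141276786 (Cdhr5). The villus tip members lie at chr2:163726584-163750239 (Ada), chr9:88327197-88372092 (Nt5e), chr4:55527143-55532466 (Klf4) and chr11:99428403-99438150 (Krt20), and Alpi and Slc28a2 lie at chr1:87098002-87101606 and chr2:122426477-122461137. All are protein-coding. Exons of Vil1 share 49 bases with Usp37 on the other strand and those of Ezr share 6 bases with Sytl3, and the strand setting of the counting was not given in the sources used here. RefSeq windows of the 250 bases before the transcription start (build GRCm38.p6) were matched for 10 of 10 members and searched on both strands for 5 short motifs that are bound by families of gut epithelial transcription factors. For Slc28a2, bases after the RefSeq start were found in none of its GENCODE transcripts, and its window, which ends before the gene start given above, is counted but not printed. Some RefSeq starts lie inside the gene spans given above. The Nt5e window (chr9:88327359-88327608) lies wholly within its gene span, and the windows of Vil1, Myo1a and Ezr run partly into theirs. Their matches are counted all the same. The windows of 4 members are printed for genes that the values below turn on: the structural gene Vil1, the villus tip genes Krt20 and Ada, whose highest levels were 4.70 and 33.9 times their lowest, and Alpi. Capitals mark the motif matches, and each window is given in the direction of its gene. Vil1 is on the plus strand (chr1:74409134-74409383), and Krt20 (chr11:99438154-99438403), Ada (chr2:163750240-163750489) and Alpi (chr1:87101607-87101856) are on the minus strand.
Vil1: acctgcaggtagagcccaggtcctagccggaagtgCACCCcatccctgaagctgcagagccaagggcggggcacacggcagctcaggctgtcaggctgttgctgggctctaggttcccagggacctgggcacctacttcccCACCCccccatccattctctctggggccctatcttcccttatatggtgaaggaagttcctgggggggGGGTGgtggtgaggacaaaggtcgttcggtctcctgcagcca
Krt20: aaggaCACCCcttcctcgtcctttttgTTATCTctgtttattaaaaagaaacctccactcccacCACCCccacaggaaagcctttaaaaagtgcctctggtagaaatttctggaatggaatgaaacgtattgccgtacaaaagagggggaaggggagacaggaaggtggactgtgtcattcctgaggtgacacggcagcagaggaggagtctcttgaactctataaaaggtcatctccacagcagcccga
Ada: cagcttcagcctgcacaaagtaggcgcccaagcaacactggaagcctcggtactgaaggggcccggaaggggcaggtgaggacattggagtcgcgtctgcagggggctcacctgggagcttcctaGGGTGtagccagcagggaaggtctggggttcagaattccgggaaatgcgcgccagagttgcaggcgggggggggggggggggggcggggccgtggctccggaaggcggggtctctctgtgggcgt
Alpi: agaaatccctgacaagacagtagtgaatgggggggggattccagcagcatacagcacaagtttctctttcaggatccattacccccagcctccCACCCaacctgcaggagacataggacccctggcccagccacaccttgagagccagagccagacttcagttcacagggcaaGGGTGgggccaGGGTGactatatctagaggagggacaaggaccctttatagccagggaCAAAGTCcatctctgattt
The Vil1 window held 3 copies of the KLF letters CACCC or their reverse complement GGGTG, and the Ada window held 1. The Krt20 window held the GATA letters AGATAA or their reverse complement TTATCT once and CACCC 2 times. The Alpi window held the HNF4 letters CAAAGTC once, 19 bases before the start, and 3 copies of CACCC. Of 32851 mouse windows of the same length, 52.0% held CACCC, 9.99% held AGATAA and 3.84% held CAAAGTC. Among the 10 members, CACCC was found in 8, AGATAA in 2 (Krt20 and Slc28a2), the CDX letters TTTATG or their reverse complement CATAAA in 2 (Cdhr5 and Slc28a2), and the AP-1 letters TGANTCA in 1 (Ezr). TTTATG was held by 10.8% and TGANTCA by 6.75% of all windows. No motif overlapped another among these matches in the 4 windows printed, and a match describes letters, not a bound site.

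The structural members had narrower ranges over the libraries than Ada, Nt5e and Slc28a2. Vil1 encodes villin, which bundles and severs the actin filaments of the microvillus core. Its level was 1789, 1803 and 1789 CPM in Chow 8, 17 and 19, and 1308, 2389.9 and 2379 CPM in HFD 4, 30 and 38. It was 1172, 1991 and 1849 CPM in HFD Vehicle 23, 50 and 55, and 1916, 1673 and 2113 CPM in HFD PCN 5, 11 and 27. The lowest values were those of HFD Vehicle 23 and HFD 4 and the highest was 2.04 times the lowest. All 4 groups overlapped.

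Myo1a encodes brush border myosin I, the motor that tethers the actin core to the membrane around it. Its level was 1424, 1179 and 1289 CPM in the chow libraries and 1169.6, 1813 and 1549 CPM in HFD 4, 30 and 38. It was 1246, 1684 and 1598 CPM in HFD Vehicle 23, 50 and 55, and 1680.0, 1956 and 1605 CPM in HFD PCN 5, 11 and 27. Each PCN library lay above each chow library, and the whole range was 1.67-fold, the narrowest of the 10 members.

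Ezr encodes ezrin, which links membrane proteins to actin. Its level was 1071, 743 and 998 CPM in the chow libraries, 475, 985 and 890.2 CPM in HFD 4, 30 and 38, 405, 711 and 847 CPM in HFD Vehicle 23, 50 and 55, and 1156, 1234 and 897 CPM in HFD PCN 5, 11 and 27. The lowest values were again those of HFD Vehicle 23 and HFD 4, and each PCN library lay above each vehicle library. Cdhr5 encodes a protocadherin that pairs with Cdhr2 in the links between microvillus tips. Its level was 633, 630.1 and 612 CPM in the chow libraries, 500.3, 946 and 724 CPM in HFD 4, 30 and 38, 379.9, 636 and 627 CPM in HFD Vehicle 23, 50 and 55, and 811, 711 and 747 CPM in HFD PCN 5, 11 and 27. The PCN libraries of Cdhr5 did not overlap with the vehicle or the chow libraries, and the highest value, in HFD 30, was 2.49 times the lowest.

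**Figure D1:**
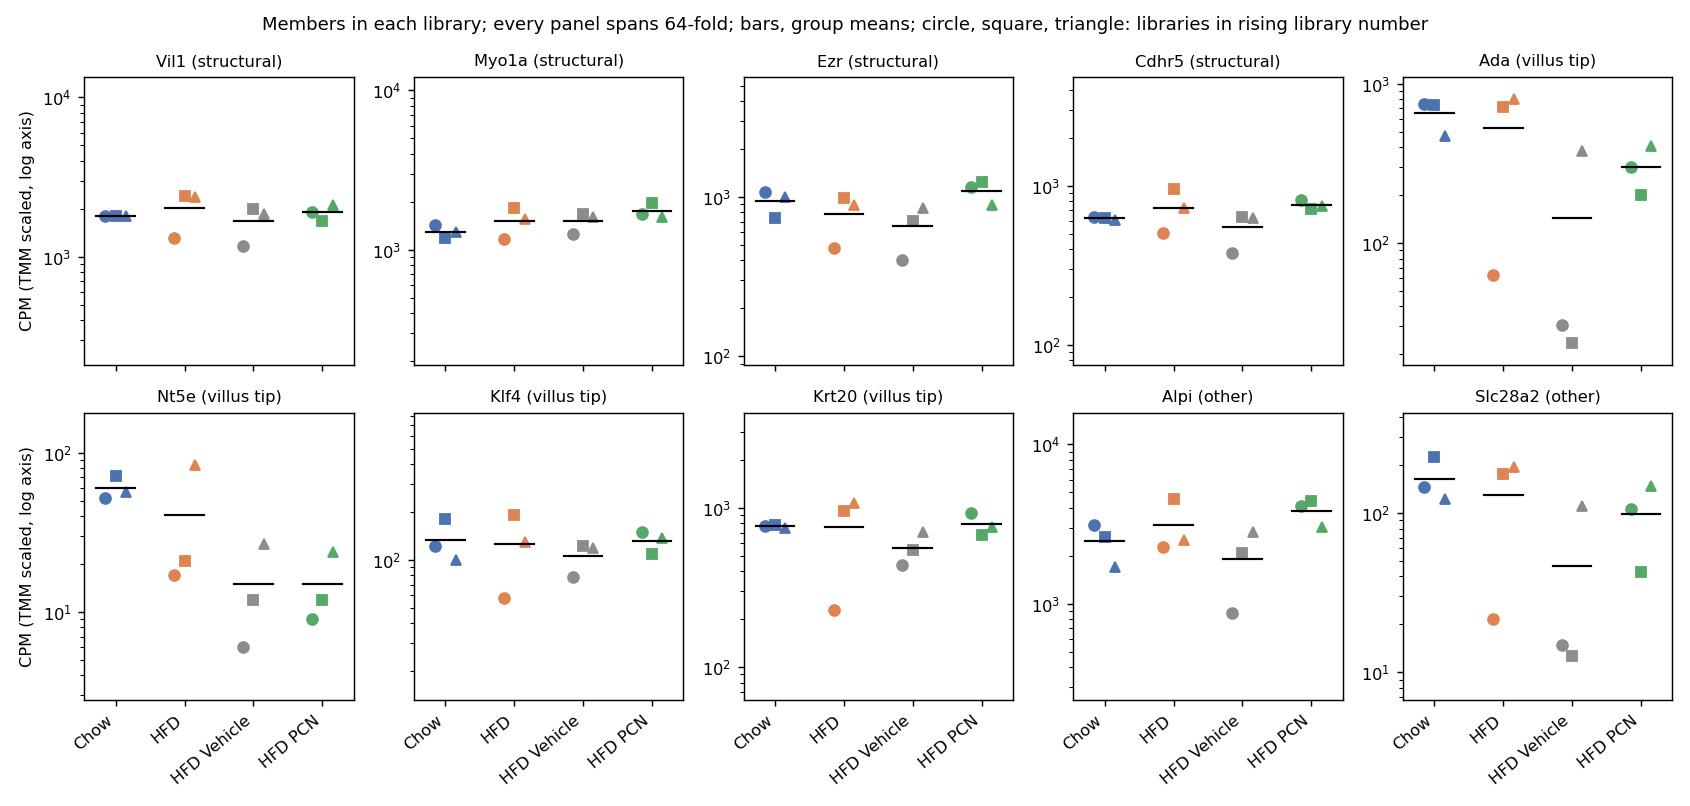
CPM after TMM scaling (log axis, each panel spanning the same fold range) of the 10 members in the 12 libraries of the 4 groups; each marker is 1 library and each bar a group mean. Vil1 and Myo1a stay within about 2.04-fold, while Ada falls to 23.6 CPM and Slc28a2 to 12.7 CPM in HFD Vehicle 50.

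The villus tip members split. Ada, Nt5e and the transporter gene Slc28a2 were far lower in some high-fat libraries, while Klf4 and Krt20 stayed nearer to the structural members. Ada encodes adenosine deaminase, which turns adenosine into inosine. Its level was 748, 739.9 and 472 CPM in Chow 8, 17 and 19, and 63.3, 713 and 802 CPM in HFD 4, 30 and 38. It was 30.6, 23.6 and 378 CPM in HFD Vehicle 23, 50 and 55, and 299, 200.4 and 406 CPM in HFD PCN 5, 11 and 27. The 3 low libraries, HFD 4 and HFD Vehicle 23 and 50, lay below each of the other 9, and the highest value was 33.9 times the lowest. The PCN libraries lay below the chow libraries without overlap, and below HFD 30 and 38. In a piece of tissue, fewer cells of a type and less RNA per cell cannot be told apart.

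Nt5e encodes CD73, the surface enzyme that makes adenosine from AMP. Its level was 51.6, 71.8 and 56.5 CPM in the chow libraries and 17.1, 21.0 and 83.1 CPM in HFD 4, 30 and 38. It was 5.99, 11.9 and 26.8 CPM in HFD Vehicle 23, 50 and 55, and 8.99, 11.8 and 23.9 CPM in HFD PCN 5, 11 and 27. In 8 of the 9 high-fat libraries, all but HFD 38, Nt5e lay below the lowest chow library. Its pattern therefore differed from that of Ada in HFD 30, where Ada was as high as in chow and Nt5e was not.

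Klf4 encodes a zinc finger transcription factor of differentiated epithelium. Its level was 123, 181 and 100.1 CPM in the chow libraries, 58.1, 191 and 129.8 CPM in HFD 4, 30 and 38, 78.0, 123 and 119 CPM in HFD Vehicle 23, 50 and 55, and 149.5, 109 and 137 CPM in HFD PCN 5, 11 and 27. Krt20 encodes an intermediate filament keratin of mature enterocytes. Its level was 773, 777 and 744 CPM in the chow libraries, 229, 956 and 1076 CPM in HFD 4, 30 and 38, 439, 546 and 703 CPM in HFD Vehicle 23, 50 and 55, and 935, 678 and 756 CPM in HFD PCN 5, 11 and 27. HFD 4 was the lowest library for both genes, and the highest was 3.29 times the lowest for Klf4 and 4.70 times for Krt20. In HFD Vehicle 50, where Ada was lowest, Klf4 stood at 123 CPM, the same as its median over the 12 libraries.

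Slc28a2 encodes CNT2, the sodium-coupled transporter that takes up purine nucleosides at the apical membrane. Its level was 147, 225 and 122 CPM in the chow libraries, 21.5, 175 and 195 CPM in HFD 4, 30 and 38, 14.8, 12.7 and 111 CPM in HFD Vehicle 23, 50 and 55, and 107, 42.9 and 148 CPM in HFD PCN 5, 11 and 27. As for Ada, HFD 4 and HFD Vehicle 23 and 50 were the lowest 3 libraries, and the range was 17.7-fold. Gm14085, a copy of Slc28a2 on the same chromosome that was looked up after the data were seen, was at 0.596 CPM or less in each library. Alpi encodes intestinal alkaline phosphatase, a brush border enzyme that detoxifies bacterial lipopolysaccharide. Its level was 3106, 2638 and 1699 CPM in the chow libraries, 2279, 4512 and 2505 CPM in HFD 4, 30 and 38, 869, 2067 and 2809.8 CPM in HFD Vehicle 23, 50 and 55, and 4076, 4413 and 3022 CPM in HFD PCN 5, 11 and 27. Each PCN library lay above each vehicle library. Alpi was lowest in HFD Vehicle 23 but not low in HFD 4.

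Divided by the exon length of the gene, the mean level over the 12 libraries ran from Alpi at 1212 CPM per kb, through Vil1 at 520.3, Myo1a at 408, Krt20 at 372, Ezr at 264, Cdhr5 at 242 and Ada at 203, to Klf4 at 41.0, Slc28a2 at 26.2 and Nt5e at 3.78 CPM per kb. Each gene's range over the libraries overlapped that of its neighbour in this order, while each library's Klf4, Slc28a2 and Nt5e level per kb lay below the lowest level per kb of any structural member. Set against Vil1 of the same library, which removes the scaling between libraries, Cdhr5 stayed between 30.4% and 42.5% of the Vil1 CPM and Klf4 between 4.44% and 10.02%. Krt20 lay between 35.8% and 48.8% of Vil1 in 10 of the 12 libraries, and at 27.4% in HFD Vehicle 50 and 17.5% in HFD 4. Ada stood at 41.8%, 41.0% and 26.4% of Vil1 in the chow libraries, at 4.84% in HFD 4, and at 2.61% and 1.19% in HFD Vehicle 23 and 50. In the PCN libraries Ada was 15.6%, 11.98% and 19.2% of Vil1, below each chow library, and Nt5e was 0.469%, 0.705% and 1.13% against 2.88%, 3.98% and 3.16% in chow.

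The standard deviation of the log2 level over the 12 libraries put numbers on the split. It was 0.25 for Myo1a, 0.30 for Vil1, 0.33 for Cdhr5, 0.48 for Klf4 and 0.49 for Ezr, against a median of 0.34 over 13687 genes with a mean of at least 20 counts. Krt20 reached 0.60 and Alpi 0.66. Nt5e at 1.21, Slc28a2 at 1.48 and Ada at 1.81 varied more than 98.8%, 99.5% and 99.8% of those genes. Myo1a varied more than 23.8% of them.

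The distance between the structural and the villus tip members changed with the group and with single libraries. It is taken as the mean log2 level of the 4 structural genes minus that of the 4 tip genes, which is not per length and serves only to compare libraries. It was 2.21, 1.76 and 2.36 in Chow 8, 17 and 19, a mean of 2.11 ± 0.31 (SD, n = 3). It was 3.64, 2.62 and 2.0 in HFD 4, 30 and 38 (mean 2.75 ± 0.83, SD, n = 3), and 2.31 without HFD 4. In HFD Vehicle 23, 50 and 55 it was 3.75, 4.05 and 2.71 (mean 3.50 ± 0.71, SD, n = 3). Without HFD Vehicle 23 and 50 only the 2.71 of HFD Vehicle 55 was left. In HFD PCN 5, 11 and 27 it was 3.22, 3.48 and 2.78 (mean 3.16 ± 0.36, SD, n = 3). The chow libraries lay below the vehicle and the PCN libraries without overlap, while the vehicle and PCN libraries overlapped. No test was made of these group scores, since their genes were chosen with results of these libraries known.

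Klf4 and Krt20 differed little between groups on this measure. The mean log2 level of these 2 genes minus that of the structural genes was -1.77 ± 0.31 in chow, -2.07 ± 0.59 in HFD, -1.98 ± 0.11 in HFD Vehicle and -2.0 ± 0.23 in HFD PCN (SD, n = 3 each). HFD 4, at -2.74, was the lowest. For the purine genes Ada, Nt5e and Slc28a2, grouped after their values were seen, the same difference was -2.56 ± 0.39 in chow, -3.50 ± 1.18 in HFD, -5.04 ± 1.43 in HFD Vehicle and -4.17 ± 0.68 in HFD PCN (SD, n = 3 each). Its lowest values were -6.13 in HFD Vehicle 50, -5.56 in HFD Vehicle 23, -4.78 in HFD PCN 11 and -4.74 in HFD 4.

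**Figure D2:**
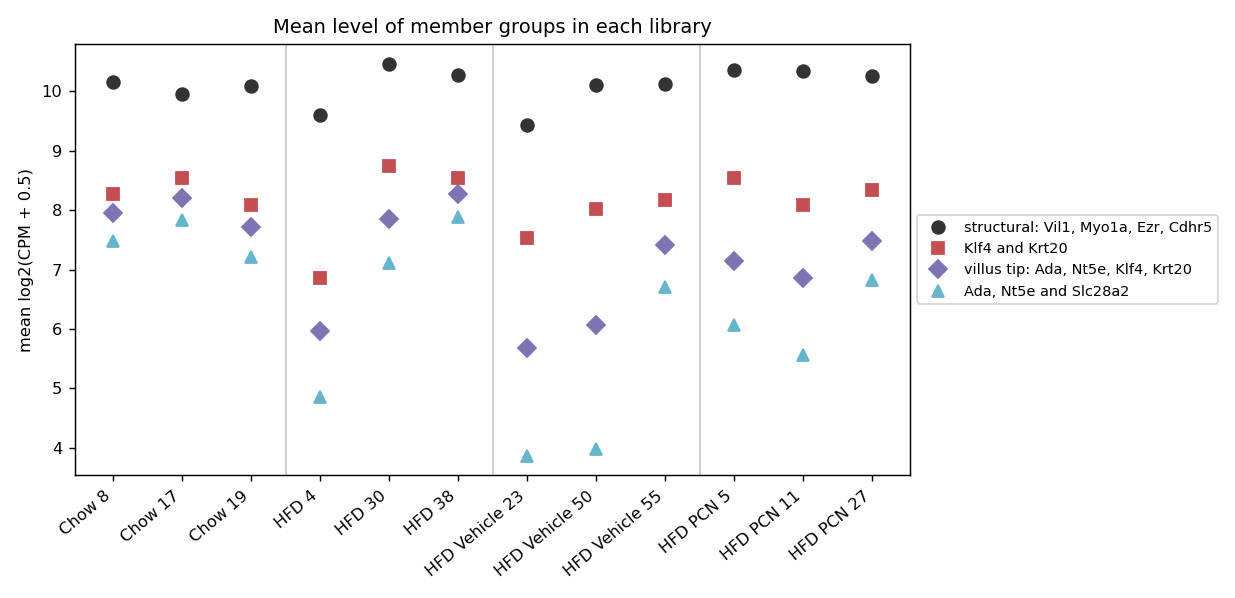
Mean log2(CPM + 0.5) of the structural genes, of Klf4 and Krt20, of all 4 villus tip genes, and of Ada, Nt5e and Slc28a2 (y axis) in each of the 12 libraries (x axis); each marker is 1 library. Klf4 with Krt20 follow the structural genes more closely than the other tip genes do, while the purine genes drop to 4.86 in HFD 4, 3.87 in HFD Vehicle 23 and 3.98 in HFD Vehicle 50.

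Some of the 3 libraries with low Ada and Slc28a2 also differed in other markers, but not all 3 in each. The 10 mature enterocyte markers summed to 27222, 15692 and 37223 CPM in HFD 4, HFD Vehicle 23 and HFD Vehicle 50. In the other 9 libraries they summed to 36732 to 53944 CPM, a range that holds HFD Vehicle 50. Paneth cell markers summed to 2649.7 and 1196 CPM in HFD Vehicle 23 and 50, against 261 to 773 CPM in the other 10, with HFD 4 at 681 CPM. T and B lymphocyte markers summed to 77.7 and 83.8 CPM in HFD Vehicle 23 and 50, against 299 to 713 CPM in the other 10, with HFD 4 at 348 CPM. The heat shock, ribosomal RNA and smooth muscle values of the same libraries are given above. The part of these differences in the member levels was not tested. The iron exporter Slc40a1 gave another order of libraries. It is 1 of 6 genes with a known gradient along the gut, added after the data were seen. Slc40a1 was 21.8 CPM in Chow 19, 40.3 CPM in HFD 38 and 8.99 CPM in HFD Vehicle 23, against 113 to 923 CPM in the other 9. That list mixes genes of the proximal and the distal gut, so the signs of its genes need not agree. Log2 fold changes of its tested genes were positive in 3 and negative in 1 between HFD and Chow. Between HFD Vehicle and HFD they were positive in 1 and negative in 4. In HFD PCN against HFD Vehicle and in HFD PCN against Chow they were positive in 4 and negative in 1. The position of the samples along the gut was not tested. Ada and Slc28a2 were high in HFD 38 and low in HFD 4, whereas Slc40a1 was 433 CPM in HFD 4.

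**Figure D3:**
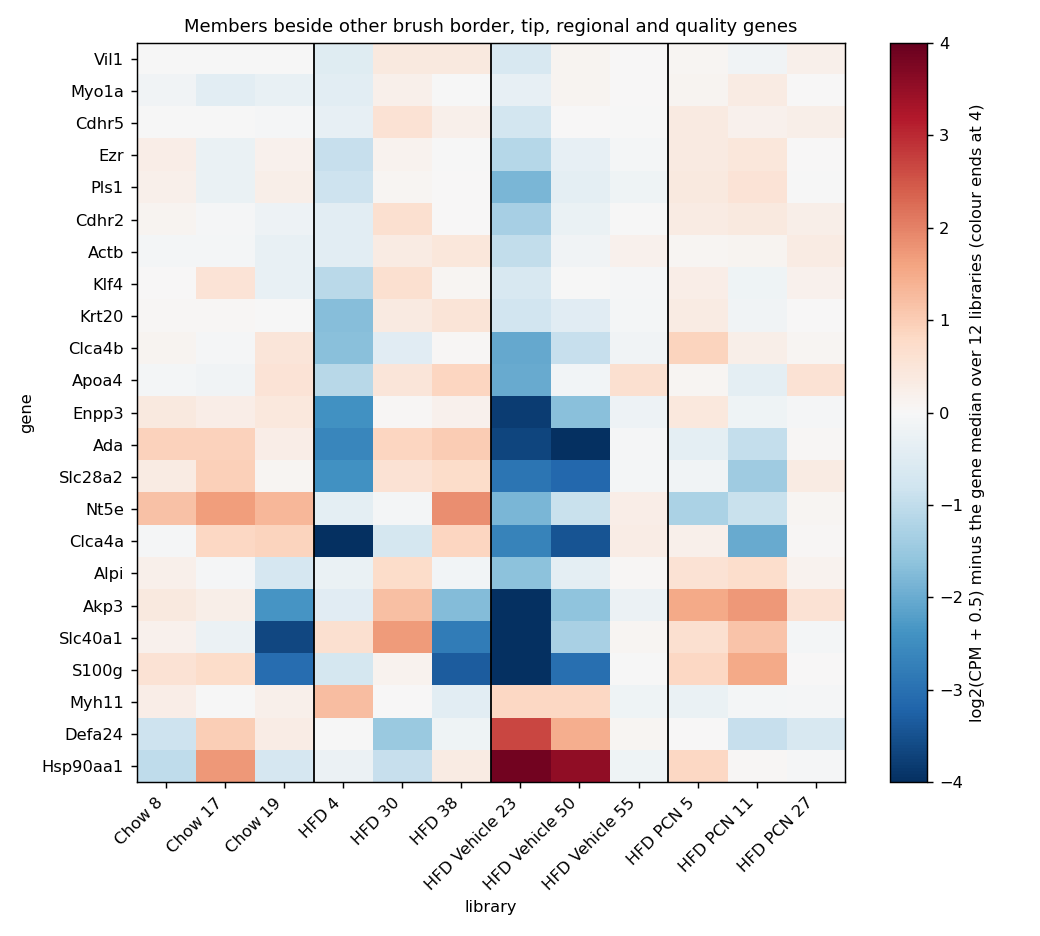
Heat map of log2(CPM + 0.5) minus the gene median over 12 libraries (colour, ending at 4) for members and other genes (y axis, chosen after their values were seen) in each library (x axis). Ada, Slc28a2, Enpp3 and Clca4a are lowest in HFD 4, HFD Vehicle 23 and HFD Vehicle 50. Akp3, Slc40a1 and S100g are low in Chow 19 and HFD 38, and Hsp90aa1 is highest in HFD Vehicle 23 and 50.

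The first comparison of the design asked what the high-fat diet alone does. No member passed the test between HFD and Chow. edgeR's quasi-likelihood test with Benjamini-Hochberg adjustment called 0 of the 10 members, where 0.0655% of all 15278 genes tested were called (10 genes). DESeq2 and limma-voom also called 0 members, and 0 members had an unadjusted edgeR p under 0.05, as 10.3% of all genes had. In 0 members did the HFD and the chow libraries not overlap, as in 15.8% of all genes. Positive log2 fold changes were found for 4 of 10 members and for 50.5% of all genes. Adjusted p-values of the members in edgeR ran from 0.735 to 0.982. The 4 structural genes had a median log2 fold change of 0.18 and the 4 tip genes one of -0.22, beside 0.00459 over all genes tested. On the same scale, Vil1 was at 0.16 (SE 0.27), Myo1a at 0.21 (SE 0.23), Cdhr5 at 0.20 (SE 0.23) and Ezr at -0.27 (SE 0.27). The tip genes had larger SEs in this comparison, which follow the spread between libraries. Ada was at -0.34 (SE 0.86), Nt5e at -0.56 (SE 0.64), Krt20 at -0.04 (SE 0.47) and Klf4 at -0.10 (SE 0.41). For Ada an interval of 2 SE ran from -2.06 to 1.38.

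These diet values moved with single libraries. Without HFD 4, Ada was at 0.17, Slc28a2 at 0.13, Krt20 at 0.37 and Klf4 at 0.21 on the log2 scale, all with the sign turned. Without HFD 38, the library with 83.1 CPM of Nt5e, Nt5e fell by 1.63 on the log2 scale with an edgeR adjusted p of 0.00788. In that fit 63 of all 14948 genes tested were called in place of 10. Markers of other cell types also differed between HFD and Chow. Log2 fold changes were negative in 7 of 7 pancreatic acinar markers (median -3.26) and 7 of 7 T and B lymphocyte markers (median -1.16). They were also negative in 5 of 5 Paneth markers tested (median -0.45). None of these markers was called by edgeR, and their part in the members' values was not tested. In the authors' deposited table the members' adjusted p-values for this comparison ran from 0.9417 to 0.9972.

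The second comparison asked what PCN does in obese mice against its vehicle. Again 0 of the 10 members were called by edgeR, where 0.0621% of 16110 genes were called (10 genes), and DESeq2 and limma-voom called 0 members as well. Alpi alone had an unadjusted edgeR p under 0.05 (0.0493), as 17.9% of all genes did. All 10 members had a positive log2 fold change, beside 49.0% of all genes tested, with a median log2 fold change of 0.47 against -0.01 over all genes. On the log2 scale Alpi was at 0.99 (SE 0.44, edgeR adjusted p 0.278), with group means of 3837 ± 725 CPM in HFD PCN and 1915 ± 979 CPM in HFD Vehicle (SD, n = 3 each). Ezr was at 0.74 (SE 0.33, edgeR adjusted p 0.279) and Cdhr5 at 0.45 (SE 0.28, edgeR adjusted p 0.382). These 3 members had PCN libraries that all lay above the vehicle libraries, which 11.2% of all genes tested did. Ada was at 1.06 (SE 1.10) and Slc28a2 at 1.11 (SE 0.95), Krt20 at 0.48 (SE 0.28) and Klf4 at 0.30 (SE 0.24). Nt5e was at 0.01 (SE 0.53) and Vil1 at 0.17 (SE 0.31). In the authors' deposited table the log2 fold change was 0.85 for Alpi (adjusted p 0.2447) and 0.67 for Ezr (adjusted p 0.2965), and no member passed.

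These values moved with the choice of control libraries. Without HFD Vehicle 55, edgeR called Ada (log2 fold change 3.48, adjusted p 9.08e-05), Slc28a2 (2.84, adjusted p 0.0139) and Alpi (1.39, adjusted p 0.0499). In that fit 3697 of all 16789 genes tested were called in place of 10, so calls were common among all genes and 3 of 10 members do not stand out. Without HFD Vehicle 23 and 50, the libraries with high Hsp90aa1, HFD Vehicle 55, the library with the fewest counts, was the only control left. The log2 fold change of Ada was then -0.36, with Slc28a2 at -0.21 and Nt5e at -0.90. Alpi was then at 0.42, Ezr at 0.34 and Cdhr5 at 0.24, and without HFD Vehicle 23 alone they were at 0.64, 0.48 and 0.24. With the untreated HFD libraries as the control in place of the vehicle, the log2 fold change of Ada was -0.79, with Slc28a2 at -0.40, Nt5e at -1.48 and Vil1 at -0.08, while Alpi was at 0.32, Ezr at 0.49 and Cdhr5 at 0.0718. Paneth markers and smooth muscle markers, which were high in HFD Vehicle 23 and 50, had negative log2 fold changes between PCN and vehicle in 6 of 6 genes each, with medians of -2.36 and -0.69, and 0 of either were called. The 10 mature enterocyte markers all had positive values, with a median of 0.50 and 0 called. T and B lymphocyte markers were positive in 7 of 7 genes (median 0.87) and fibroblast markers negative in 6 of 6 (median -0.97), as were pancreatic acinar markers in 7 of 7 (median -2.34), with 0 called in each list. The part of these marker differences in the members' values was not tested.

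**Figure D4:**
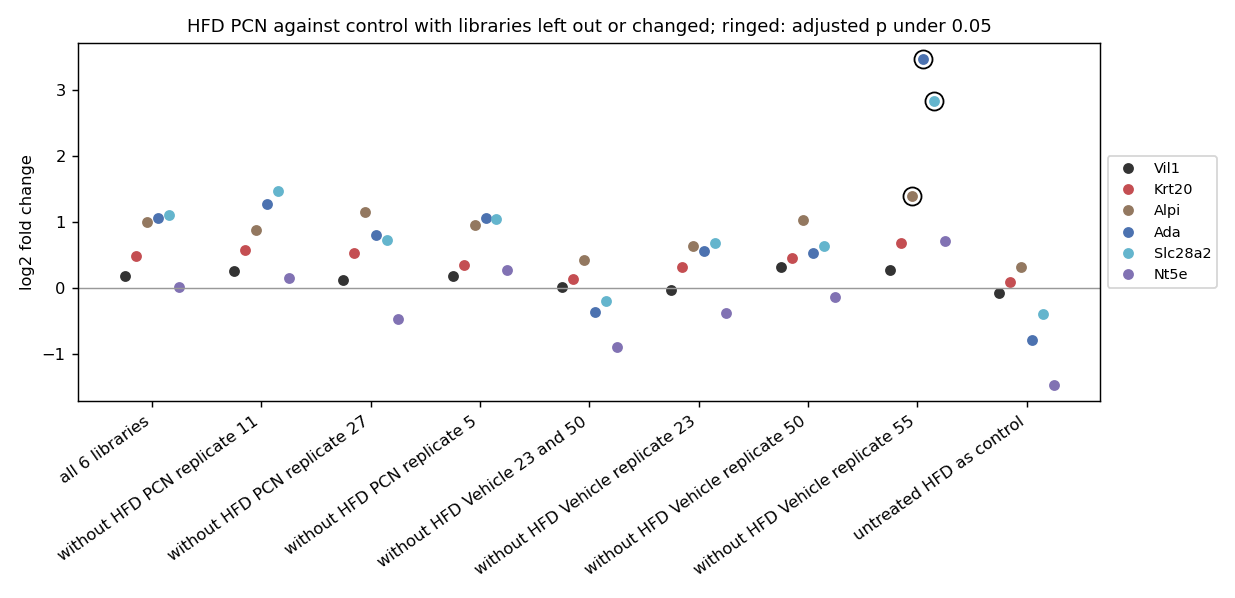
edgeR log2 fold change (y axis) of 6 members between HFD PCN and its control, with all 6 libraries and with libraries left out or the control changed (x axis); rings mark an adjusted p under 0.05. Ada ranges from -0.79 with untreated HFD as the control to 3.48 without HFD Vehicle 55, and Vil1 only from -0.08 to 0.31.

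The vehicle was also set against the untreated high-fat diet, a pair that the 2 deposited tables hold apart. edgeR called 0 of the 10 members and 0 of 16255 genes, a background of 0%, while 953 genes (5.86%) and 0 members had an unadjusted p under 0.05. In 0 members did the 2 groups not overlap, as in 9.66% of all genes. DESeq2 called 29 genes and limma-voom 0, with 0 members in either. Of the 10 members 9 had negative log2 fold changes, with a median of -0.40 against 0.00757 over all genes, 50.7% of which had positive values. On the log2 scale Ada was at -1.85 (SE 1.24), Slc28a2 at -1.50 (SE 1.02) and Nt5e at -1.47 (SE 0.68), and the structural genes had a median of -0.26. Without HFD Vehicle 55 edgeR called 260 of all 16844 genes tested and 0 members. Without HFD Vehicle 23 and 50, which leaves HFD Vehicle 55 alone in its group, the members' median was -0.10. Between HFD Vehicle and HFD, log2 fold changes were positive in 6 of 6 Paneth markers (median 2.13) and 7 of 7 pancreatic acinar markers (median 1.99). They were also positive in 7 of 7 stem and proliferating crypt markers (median 0.52), 6 of 6 enteroendocrine markers (median 0.59) and 6 of 6 smooth muscle markers (median 0.31). The part of these marker differences in the members' values was not tested. This comparison shares libraries with the comparisons above and is no separate evidence for them.

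PCN on the high-fat diet was last compared with chow, a pair added after the levels were seen. The p-values of members in it therefore describe differences already seen and are no independent test of them. edgeR called 0 of the 10 members, where 0.340% of 15300 genes were called (52 genes). DESeq2 called 254 of the 15300 genes, 2 members among them, and limma-voom called 45, with 1 member. Nt5e was lower in 3 of 3 PCN libraries than in each chow library, at 14.9 ± 7.90 CPM against 60.0 ± 10.5 CPM (SD, n = 3 each). Its log2 fold change was -2.05 (SE 0.36), with an adjusted p of 0.0944 in edgeR, 0.0193 in limma-voom and 6.63e-10 in DESeq2. Ada was at 302 ± 103 CPM against 653 ± 157 CPM (SD, n = 3 each). Its log2 fold change was -1.14 (SE 0.28), with an adjusted p of 0.171 in edgeR and 0.000365 in DESeq2. Both genes had PCN libraries that all lay below chow, which 7.75% of all genes tested did. Without HFD PCN 27, edgeR called both genes, Nt5e at -2.54 (adjusted p 1.02e-04) and Ada at -1.40 (adjusted p 0.0419), and 349 of all 16186 genes tested. Unadjusted edgeR p-values were under 0.05 for 4 members (Nt5e, Ada, Myo1a and Alpi) and 11.8% of all genes, and 6 of 10 members and 48.8% of all genes had positive log2 fold changes. In the fit of all 12 libraries together neither was called, and the lowest adjusted p of a member was 0.737. On the log2 scale Klf4 at -0.05 (SE 0.21) and Krt20 at 0.03 (SE 0.15) stayed near 0, with 2-SE intervals of -0.47 to 0.38 and -0.28 to 0.33. Myo1a was at 0.41 (SE 0.16, edgeR adjusted p 0.335) and Cdhr5 at 0.26 (SE 0.13, edgeR adjusted p 0.479), and these 2 had PCN libraries that all lay above chow, as did 9.93% of all genes. HFD 4 and HFD Vehicle 23 and 50 do not enter this comparison, but markers of other cell types differed in it. Pancreatic acinar markers summed to 1.81 to 16.0 CPM in HFD PCN against 40.3 to 96.9 CPM in Chow, with negative log2 fold changes in 7 of 7 genes (median -3.39). T and B lymphocyte markers were negative in 7 of 7 genes (median -0.59) and fibroblast markers in 6 of 6 (median -0.45), and enteroendocrine markers were positive in 6 of 6 (median 0.60). None of these markers was called by edgeR, and their part in the members' values was not tested. The 2 groups differ in diet, in the injections and in PCN, which cannot be told apart here.

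**Figure D5:**
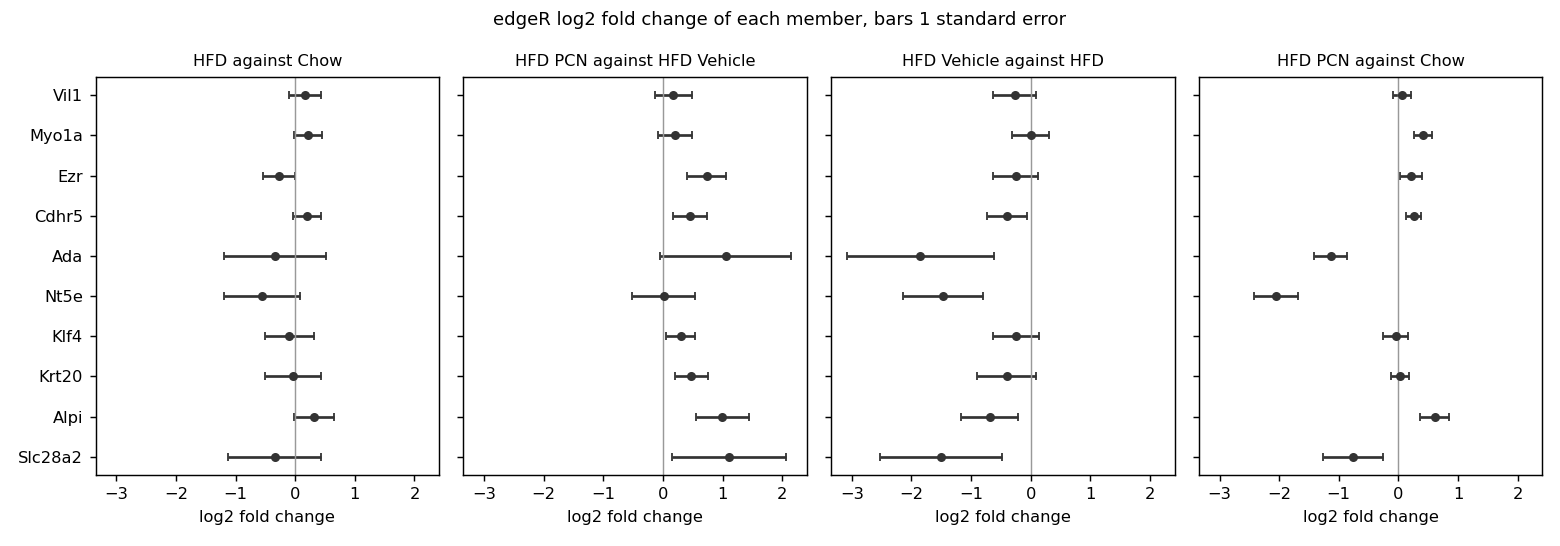
edgeR log2 fold change of each member (x axis, bars 1 SE) in the 4 comparisons, 1 panel each. The structural genes lie between -0.40 and 0.74 with short bars, Ada and Slc28a2 have bars of up to 1.24, and Nt5e lies at -2.05 in HFD PCN against Chow.

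Other genes of the brush border were looked at as lists. Of the 11 actin core and bundling genes, the 10 myosin and terminal web genes, the 4 genes of the intermicrovillar adhesion complex and the 10 membrane linker and apical traffic genes, 0 were called in each of the 4 comparisons by edgeR. Of all genes tested, edgeR called 0.0655% (HFD against Chow), 0.0621% (HFD PCN against HFD Vehicle), 0% (HFD Vehicle against HFD) and 0.340% (HFD PCN against Chow). At these shares, 0 calls in a short list, here and in the lists below, do not set its genes apart from other genes. The myosin and terminal web genes summed to 5849 CPM in HFD Vehicle 23, among their higher values over the 12 libraries (4331 to 6020 CPM), where the structural members summed to 3203 CPM, their lowest. Median log2 fold changes between PCN and vehicle were 0.40, 0.11, 0.60 and 0.25 in these lists, beside -0.01 over all genes tested. Pls1, which encodes the bundling protein plastin, ranged from 347 CPM in HFD Vehicle 23 to 1769 CPM in HFD PCN 11, and its log2 fold change against vehicle was 0.95 (SE 0.42, edgeR adjusted p 0.275). Cdhr2, the partner of Cdhr5, ranged from 577 CPM in HFD Vehicle 23 to 2283 CPM in HFD 30. Ush1c, the scaffold of the same complex, stayed between 158 and 233 CPM.

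Of the 12 genes listed for purine digestion and nucleoside uptake 11 were tested, and 0 were called in each comparison. As a list they did not share a direction. Log2 fold changes were positive in 4 and negative in 7 between HFD and Chow (median -0.29). They were positive in 7 and negative in 4 between HFD PCN and HFD Vehicle (median 0.32). In HFD Vehicle against HFD (median -0.0024) and in HFD PCN against Chow (median -0.12) they were positive in 5 and negative in 6. Enpp3, a surface enzyme that splits nucleotides, was at 705, 647 and 724 CPM in the chow libraries, 101, 554 and 611 CPM in HFD 4, 30 and 38, 38.8, 170.4 and 468 CPM in HFD Vehicle 23, 50 and 55, and 728, 478 and 526 CPM in HFD PCN 5, 11 and 27. The lowest 3 libraries were those of Ada and Slc28a2. Between HFD PCN and Chow its log2 fold change was -0.28 (SE 0.17) with an edgeR adjusted p of 0.542, beside the -2.05 of Nt5e. Slc28a1, which encodes the pyrimidine-preferring relative of CNT2 and was singled out after its values were seen, lay between 63.4 and 80.6 CPM in chow and between 22.2 and 51.7 CPM in each of the 9 high-fat libraries. Its log2 fold change was -1.02 (SE 0.25, edgeR adjusted p 0.243) between HFD and Chow and -0.97 (SE 0.18, edgeR adjusted p 0.0574) between HFD PCN and Chow. Xdh, the xanthine oxidase gene at the end of purine breakdown, ranged from 310.5 CPM in HFD Vehicle 23 to 1274 CPM in Chow 8.

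Of 14 other genes known to be high at the villus tip, 0 were called in any of the 4 comparisons. Their log2 fold changes went both ways. They were positive in 5 and negative in 9 between HFD and Chow (median -0.22). Between HFD PCN and HFD Vehicle they were positive in 11 and negative in 3 (median 0.23, from -1.39 to 1.35). Between HFD Vehicle and HFD they were positive in 3 and negative in 11 (median -0.35, from -1.44 to 1.49). Between HFD PCN and Chow they were positive in 4 and negative in 10 (median -0.32). Apoa4, a lipoprotein gene, ranged from 1431 CPM in HFD Vehicle 23 to 10428 CPM in HFD 38, and Clca4b from 233 CPM in HFD Vehicle 23 to 1783 CPM in HFD PCN 5. Clca4a, chosen after its values were seen, was at 2.47 CPM in HFD 4, and at 16.4 and 9.45 CPM in HFD Vehicle 23 and 50, the lowest 3 of the 12 libraries. Of the 9 mid villus transporter genes and the 14 epithelial transcription factor genes 0 were called. Hnf4a lay between 338 and 579 CPM and Klf5 between 172 and 256 CPM, narrower ranges than that of Klf4. Of 11 lower villus genes 8 were tested, and genes of antimicrobial lectins gave the only edgeR calls in the gene lists examined. Reg3b fell by 3.27 on the log2 scale between HFD and Chow (SE 0.37, edgeR adjusted p 0.0257), and Reg3g fell by 3.90 between HFD PCN and Chow (SE 0.37, edgeR adjusted p 0.0174).

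Of 4 other alkaline phosphatase symbols listed, Alpg was not found in both deposited tables. The other 3 were tested, and 0 were called. Akp3, the close relative of Alpi in the duodenum, was at 3812, 3421 and 577 CPM in the chow libraries, 2130.1, 6767 and 889 CPM in HFD 4, 30 and 38, 87.1, 958 and 2510.4 CPM in HFD Vehicle 23, 50 and 55, and 8363, 9699.5 and 4388 CPM in HFD PCN 5, 11 and 27. Its log2 fold change between PCN and vehicle was 2.65 (SE 0.96, edgeR adjusted p 0.244), and each PCN library lay above each vehicle library, as for Alpi. Akp3 was lowest in HFD Vehicle 23, Chow 19 and HFD 38, the libraries that were low in Slc40a1. HFD Vehicle 50, at 958 CPM of Akp3, lay close to HFD 38 but was not among the libraries low in Slc40a1. Reads of Alpi, Akp3 and Alppl2 may be split among these similar genes by the counting.

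The genes whose pattern over the 12 libraries was nearest to the mean of the structural members, by the root mean square difference of centred log2 CPM, were Slc30a6 (0.07), Gucy2c (0.07) and Gosr1 (0.08), among 13677 genes. Gucy2c, the receptor for guanylin on enterocytes, ranged from 233 to 478 CPM. Among the structural members themselves this distance was 0.09 for Cdhr5, 0.15 for Vil1, 0.18 for Myo1a and 0.23 for Ezr. Nearest to the mean of the villus tip members were the pseudogene Bambi-ps1 (0.23), Ido1 (0.25) and 4930539E08Rik (0.32), at greater distances. Bambi-ps1 ranged only from 0.143 to 4.00 CPM, so the 0.5 CPM added before taking logs shapes its pattern. Ido1, the tryptophan-degrading enzyme gene, ranged from 2.92 to 18.6 CPM. The tip members lay at 0.53 for Krt20, 0.62 for Klf4, 0.65 for Nt5e and 0.93 for Ada from their own mean, so that their mean described none of them closely.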

How the data were processed

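RNA of the mouse duodenum was sequenced in 12 libraries, and 2 deposited tables held whole-number counts per gene for 6 libraries each, with annotation columns. The authors' counts were made on GRCm38 (mm10) with HISAT2, HTSeq and DESeq2 named in the submitters' processing notes. Tool versions, the strand setting and any filter applied are not given in the sources used here. Both deposited tables also held the authors' log2 fold changes and adjusted p-values, used only where named. Columns of values that could be tied to no sample numbered 0.

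Counts were fitted as deposited with edgeR 4.0.16 in R 4.3.3 (filterByExpr, TMM, robust quasi-likelihood F-test). P-values were adjusted by Benjamini-Hochberg over all genes tested and called under 0.05. Each comparison used its own 6 libraries. The SE was taken from the fold change and the F statistic and is approximate. All 10 members passed the filter on low counts in each comparison. CPM came from TMM scaling over the 12 libraries on genes in both tables, and exon lengths from GENCODE models. RefSeq upstream windows (GRCm38.p6) were used for sequences. DESeq2 1.42.0 and limma-voom (limma 3.58.1), other scalings, filters and left-out libraries were the alternatives. The fits were also run on simulated counts with the same dispersion for all genes and no deviating library. That setting differs from the spread of Ada, Nt5e and Slc28a2 here, so it does not show how the fits treat such genes.

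Members and gene lists were chosen with earlier results of these data known. Genes named from a list were those called, otherwise up to 3 with the highest CPM, and the others were chosen after their values were seen.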

Additional observations from a re-analysis of the deposited data

How the results depend on the processing

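No paired analysis was possible because the groups compared share no replicate numbers. Of 510 log2 fold changes of members under the alternatives, 470 kept their direction and side of the threshold, 31 turned and 9 came to pass it. The cause was not tested. For HFD against Chow, edgeR's 10 calls became 137 with DESeq2, 2 in a fit of all 12 libraries, 6 with limma-voom, 351 without the filter on low counts and 4 to 63 with 1 library left out, and members called ran from 0 to 1. Members whose sign turned with 1 library left out were Cdhr5 -0.0262 to 0.38, Ada -0.77 to 0.17, Klf4 -0.51 to 0.21, Krt20 -0.38 to 0.37, Alpi -0.044 to 0.50, Slc28a2 -0.74 to 0.13. For HFD PCN against HFD Vehicle, calls became 322 with DESeq2, 34 in the fit of 12 libraries, 843 without the filter and 52 with untreated HFD as control. They became 4 without rRNA-like genes and 0 to 3697 with 1 library left out, and members called ran from 0 to 3. The sign turned in Vil1 (-0.0844), Ada (-0.79), Nt5e (-1.48) and Slc28a2 (-0.40) with untreated HFD as control, in Ada (-0.36), Nt5e (-0.90) and Slc28a2 (-0.21) without HFD Vehicle 23 and 50, and in Nt5e (-0.0011) with DESeq2. With 1 library left out it turned in Vil1 -0.0318 to 0.31, Nt5e -0.48 to 0.71. For HFD Vehicle against HFD, calls became 29 with DESeq2, 1 in the fit of 12 libraries, 1 without the filter and 0 to 260 with 1 library left out. The sign turned in Myo1a (-0.0158) without the filter, Ezr (0.15) without HFD Vehicle 23 and 50 and Krt20 (0.018) with limma-voom, and with 1 library left out in Myo1a -0.14 to 0.14, Ezr -0.51 to 0.0072, Klf4 -0.58 to 0.18. For HFD PCN against Chow, calls became 254 with DESeq2, 15 in the fit of 12 libraries, 261 without the filter and 8 to 349 with 1 library left out, and members called were 2 with DESeq2, 1 with limma-voom and 0 to 2 with 1 library left out. The sign turned with 1 library left out in Vil1 -0.0133 to 0.14, Klf4 -0.23 to 0.23, Krt20 -0.11 to 0.12. The structural minus tip difference moved in Chow to 2.57 without Ada, 1.43 without Nt5e and 2.65 without Krt20, in HFD Vehicle to 2.60 without Nt5e and 4.41 without Krt20, and in HFD PCN to 2.05 without Nt5e and 3.98 without Krt20. With 3 libraries in each group, the wide spread of Ada, Nt5e and Slc28a2 limits what the tests can call.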
